A study of Mus musculus with 8 samples.

Results

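The 10 genes described here carry or brake transforming growth factor beta (TGF-beta) signalling, and they were followed in mouse mammary cells exposed for 2 hours to a glucocorticoid, an estrogen or both. They are the ligands Tgfb1 and Tgfb2, the receptor Tgfbr1, the pseudoreceptor Bambi, the signal carrier Smad3, the inhibitory Smads Smad6 and Smad7, and the Smad corepressors Ski, Skil and Tgif1. Every probe set whose only gene symbol in the platform annotation is one of these was kept, which gave 21 probe sets for the 10 genes, of 45037 probe sets tested and 18193 genes named by a single symbol.

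The study asked how gene expression changes when cells are given dexamethasone and estradiol together. All 8 Affymetrix arrays hold RNA of the 7438 line, mouse mammary cells that carry a green fluorescent glucocorticoid receptor (GFP-GR) and a Cherry-tagged estrogen receptor (Cherry-ER) under a tetracycline-regulated promoter. In every group, untreated cells included, tetracycline was withdrawn 24 hours earlier in medium with 10% charcoal-dextran serum. The withdrawal is taken to switch on both fusion proteins, whose levels the arrays do not measure. The groups were Dex+E2 (100 nM dexamethasone plus 100 nM estradiol), Dex (100 nM dexamethasone, a synthetic glucocorticoid), E2 (100 nM estradiol) and Untreated, with 2 arrays each. Titles number the arrays of a group as replicates 1 and 2. Nothing states whether these were separate cultures, so the p-values cover only array-to-array spread, possibly of a technical kind. A GR-ChIP is mentioned in the description of Dex+E2 replicate 1 and of E2 replicate 2, although titles and treatment labels place both among the expression arrays. Calls of members and counts of listed genes that change without these arrays are given both ways. Wherever an array is left out, its group keeps 1 array, which is then assumed to vary like the other groups.

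Array medians lay between 5.58 and 5.66 on the log2 scale and replicate arrays correlated at 0.9961 to 0.9983, lowest for Dex+E2. The glucocorticoid targets Fkbp5, Per1 and Tsc22d3 were 1.62, 2.66 and 2.82 log2 units higher with Dex than in untreated cells, and 1.3, 2.41 and 2.26 higher with Dex+E2, all past the threshold (limma adjusted p at most 0.000918). With E2, Per1 was 1.97 higher (adjusted p = 0.000589), and Fkbp5 and Tsc22d3 differed by 0.16 and 0.97 (adjusted p = 0.952 and 0.494). Markers were set against the label by the percentile of their level among all probe sets, which is a rough guide, since probe sets differ in brightness and the median does not separate expressed from unexpressed genes. Of 8 mammary epithelial markers, 4 lay above the median level. Krt14 stood at the 77.2 percentile, whereas Cdh1, the epithelial cadherin, stood at 4.11 and Krt18 at 26.1. All 5 mesenchymal markers were above the median, led by Vim at the 99.8 percentile and Pdgfrb at 95.2. The lowest of them were Col1a1 at 51.2 and Acta2 at 58.1. Immune, endothelial and adipocyte markers above the median numbered 2 of 4, 1 of 3 and 0 of 1 measured. Among the immune markers, Cd3e stood at the 60.9 percentile, Lyz2 at 54.7 and Ptprc, the pan-leukocyte antigen, at 15.1. No marker of any of these lists was called changed against untreated cells.

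TGF-beta ligands bind a type II receptor, which activates the type I receptor Tgfbr1, and Tgfbr1 in turn phosphorylates Smad2 and Smad3. These join Smad4, enter the nucleus and act on target genes, among them their own inhibitors: Smad7 blocks the TGF-beta type I receptor and Smad6 acts mainly on the bone morphogenetic protein (BMP) branch. Ski, Skil (SnoN) and Tgif1 hold Smad complexes in a repressive state. In the mammary gland TGF-beta is known for restraining ductal growth, and the glucocorticoid and estrogen receptors are both hormone-activated transcription factors.

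Promoter sequences are shown for Smad6 and Tgif1, the members with a promoter entry whose levels changed most, and for Tgfb2, the ligand with the widest range of levels. Each is the 250 bases before a RefSeq start site (build GRCm38.p6), read 5′ to 3′ on the gene's strand. Capitals mark the core Smad-binding letters CAGAC and the glucocorticoid receptor half-site AGAACA, or their reverse complements GTCTG and TGTTCT.
Smad6, chr9:64022060-64022309, minus strand: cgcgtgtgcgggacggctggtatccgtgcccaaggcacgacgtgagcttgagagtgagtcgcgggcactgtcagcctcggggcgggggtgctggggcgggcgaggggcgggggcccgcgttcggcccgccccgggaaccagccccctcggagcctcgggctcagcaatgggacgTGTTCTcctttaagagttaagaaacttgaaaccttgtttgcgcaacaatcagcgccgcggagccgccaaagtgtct
Tgif1, the first of 5 annotated starts, chr17:70853533-70853782, minus strand: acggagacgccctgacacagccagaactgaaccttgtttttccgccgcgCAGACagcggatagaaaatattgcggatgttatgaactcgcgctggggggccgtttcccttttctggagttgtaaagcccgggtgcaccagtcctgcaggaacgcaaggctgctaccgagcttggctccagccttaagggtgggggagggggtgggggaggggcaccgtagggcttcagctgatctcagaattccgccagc
Tgfb2, chr1:186705990-186706239, minus strand: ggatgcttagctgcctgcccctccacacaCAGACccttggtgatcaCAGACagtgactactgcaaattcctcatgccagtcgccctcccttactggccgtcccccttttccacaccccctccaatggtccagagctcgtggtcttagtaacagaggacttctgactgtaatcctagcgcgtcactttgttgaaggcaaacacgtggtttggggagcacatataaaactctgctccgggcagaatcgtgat
The Smad6 window holds the half-site once, 76 bases before the start, and no CAGAC. The Tgif1 window holds CAGAC once, 201 bases before this start, and which of its 5 starts these cells use is not known. The Tgfb2 window holds CAGAC at 221 and 204 bases before the start. On both strands, CAGAC occurs in 42.2% and AGAACA in 16.1% of the 32851 RefSeq windows of this length, so neither is rare. The other letters searched were found in none of these 3 windows: the palindromic Smad element GTCTAGAC (0.167% of windows), the full palindromic glucocorticoid response element (0.387%), the estrogen receptor half-site AGGTCA (14%), the full palindromic estrogen response element (0.0639%) and the AP-1 site TGANTCA (6.75%). GTCTAGAC does not itself contain CAGAC, and the full response elements can overlap their half-sites. Of the other 4 Tgif1 windows, 2 hold CAGAC, 1 of these also holds AGGTCA (237 bases before the fourth start), and 1, before the fifth start, holds AGAACA. Of the 10 genes, 7 have an entry, with 12 windows in all; Smad7, Bambi and Skil are named only.

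Of the 6 members that brake the pathway, Smad6, Smad7 and Tgif1 were lower after 2 hours of Dex than in untreated cells, while Bambi, Ski and Skil did not pass the test. Neither did the ligands, the receptor or Smad3. With Dex, 4 of the 21 member probe sets, from these 3 genes, passed the threshold (limma, Benjamini-Hochberg adjusted p under 0.05 over all probe sets), all of them lower. Over all 45037 probe sets, 0.924% were called in this comparison, and 0.349% were called lower. At an unadjusted p under 0.05 the members were the same 4, against 5.69% of all probe sets. The median difference was -0.03 log2 units over the 21 member probe sets and 0 over all probe sets. In bulk RNA, fewer cells expressing a gene and less RNA per cell cannot be told apart. The members were chosen with earlier results of these data known, among them a lower Smad7 level with Dex. The direction of Smad7 and the share of members called, here and in the comparisons below, are therefore not independent evidence.

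Smad6, an inhibitory Smad that acts mainly on the BMP branch, has 1 probe set (1422771_at). It read 6.87 and 7.24 log2 units in the Dex+E2 arrays, 6.96 and 6.79 in Dex, 7.52 and 7.65 in E2, and 7.89 and 8.06 in untreated cells. All 4 arrays with Dex lay below both E2 arrays, and both E2 arrays lay below both untreated arrays. The difference of Dex from untreated was -1.1 ± 0.129 (standard error), or 2.14-fold lower (adjusted p = 0.00185).

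Smad7, the other inhibitory Smad, was read by a pair of probe sets. On 1423389_at it stood at 8.57 and 8.45 with Dex+E2, 8.31 and 8.34 with Dex, 8.95 and 8.77 with E2, and 9.14 and 9.07 in untreated cells. On 1443771_x_at, whose suffix marks probes that can also match other sequences, it stood at 8.01 and 7.89 with Dex+E2, 7.62 and 7.62 with Dex, 8.54 and 8.54 with E2, and 8.63 and 8.81 in untreated cells. The order was the same on both: Dex lowest, then Dex+E2, E2 and untreated, and no array of one group overlapped the next, although of the steps between neighbouring groups only that between Dex+E2 and E2 was called, and only on 1443771_x_at. Smad7 fell with Dex by 0.78 ± 0.0946 log2 units on 1423389_at, 1.72-fold lower (adjusted p = 0.00224), and by 1.1 ± 0.0934 on 1443771_x_at, 2.15-fold lower (adjusted p = 0.000232).

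Tgif1, a homeodomain protein that recruits repressor complexes to Smads, also fell with Dex. Its probe set 1422286_a_at, which by its suffix reads several transcripts of the gene, gave 7.52 and 7.22 with Dex+E2, 7.61 and 7.62 with Dex, 8.43 and 8.15 with E2, and 8.56 and 8.91 in untreated cells. The 4 arrays with Dex were below the 4 arrays without it. The Dex difference was -1.12 ± 0.144, 2.17-fold lower (adjusted p = 0.00337). This call was lost with single arrays left out: the adjusted p was 0.0609 and 0.0503 when Dex replicate 1 or 2 was left out, and 0.0568 without Untreated replicate 2. The Smad6 call and both Smad7 calls held under every alternative that could be run on them.

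**Figure D1:**
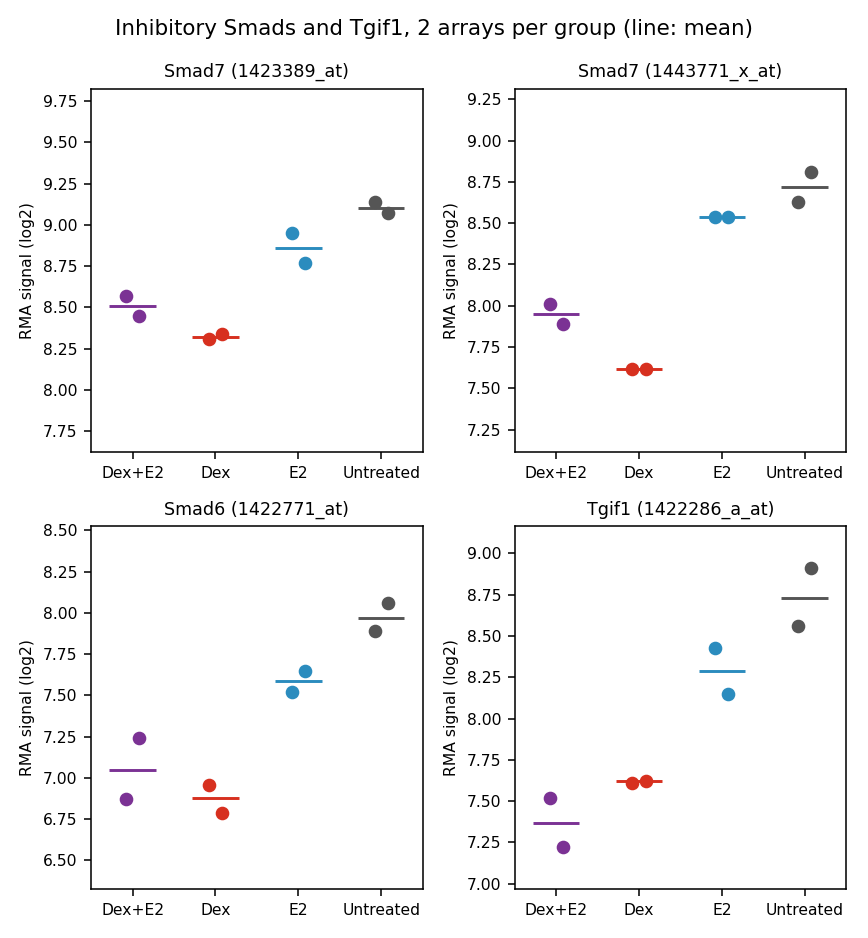
Log2 levels of the Smad6, Smad7 and Tgif1 probe sets on each array (points) with group means (bars), in the order Dex+E2, Dex, E2 and Untreated. All 4 arrays with Dex lie below all 4 without it on each of the 4 probe sets. Heights on different probe sets cannot be compared.

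With Dex, the other 17 probe sets differed from untreated by -0.16 to 0.24 log2 units. The ends of this range are Tgfbr1 1420895_at and Skil 1452214_at. Smad3, the receptor-activated Smad, is well measured on 1454960_at, at 9.59 to 9.82 over the 8 arrays. Its Dex difference was -0.03, with a 95% interval of -0.21 to 0.16, so a change as large as the -1.1 of Smad6 lies outside it. Tgfbr1, the type I receptor, read 9.98 to 10.44 on 1420895_at and differed by -0.16 (interval -0.4 to 0.08). Its other probe sets, 1420893_a_at and 1420894_at, lay at the 31.6 and 9.57 percentiles of all levels, where RMA compresses differences. Tgfb1, the most widely expressed ligand of the family, read 6.18 to 6.45 on 1420653_at and differed by -0.15 with Dex (interval -0.36 to 0.05). Ski, the founding member of its corepressor family, read 7.93 to 8.31 on 1426373_at and 8.55 to 9.15 on 1429192_at, with Dex differences of -0.1 and 0.12. Bambi differed by -0.05 with Dex (interval -0.23 to 0.13).

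**Figure D2:**
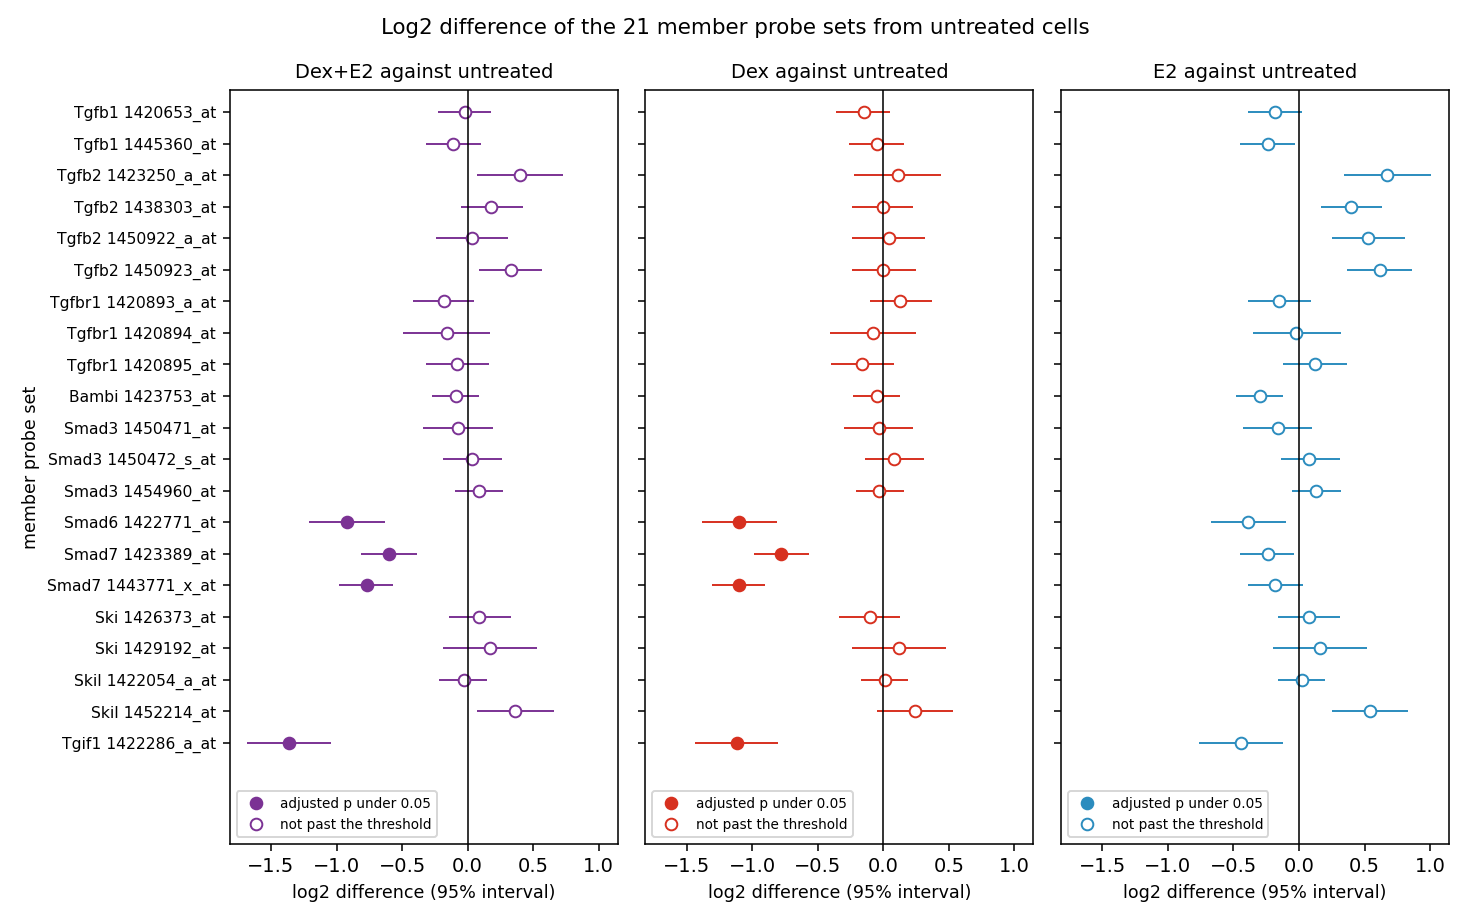
Log2 differences from untreated for the 21 member probe sets with Dex+E2, Dex and E2 (points, filled where called, with 95% limma intervals), grouped by role. The inhibitory Smads and Tgif1 lie left of 0 with Dex and Dex+E2, and the Tgfb2 probe sets lie right of 0 with E2.

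With E2 alone, 0 of the 21 member probe sets passed the threshold, against 0.0355% of all probe sets in limma. At an unadjusted p under 0.05 there were 10, or 47.6% of the members, against 5.42% of all probe sets; 5 of them were higher than untreated and 5 lower. The 5 higher are all 4 probe sets of Tgfb2 and 1 of Skil, and the 5 lower are Smad6, Smad7 (1423389_at), Tgif1, Bambi and Tgfb1 (1445360_at). None of these differences is called, and the values below are a description.

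Tgfb2, a TGF-beta ligand, read 8.56 and 8.95 on 1423250_a_at in E2 cells, against 8.08 and 8.09 in untreated cells. On 1450923_at it read 8.52 and 8.78 in E2 cells, against 8.05 and 8.01 in untreated cells. On 1450922_a_at it read 7.56 and 7.82 in E2 cells, against 7.18 and 7.15 in untreated cells, and on 1438303_at 6.55 and 6.41 in E2 cells, against 6.11 and 6.05 in untreated cells. On all 4 probe sets both E2 arrays were above both untreated arrays. The differences were 0.67 ± 0.15, 0.62 ± 0.109, 0.53 ± 0.125 and 0.4 ± 0.106 in that order of probe sets, with adjusted p of 0.406, 0.179, 0.468 and 0.571. The 4 probe sets read the same RNA, so they are not 4 independent observations. With Dex the same probe sets differed from untreated by 0 to 0.11. With Dex+E2 they differed by 0.4, 0.33, 0.03 and 0.18, and on 1450922_a_at the Dex+E2 arrays, at 7.37 and 7.02, lay on either side of the untreated ones. Averaged over cells with and without Dex, the E2 effect on 1450923_at was 0.47 ± 0.0768 (adjusted p = 0.0937). Without E2 replicate 1 the adjusted p was 0.0444, with E2 alone then represented by replicate 2, an array described as GR-ChIP, and its spread taken from the other groups. For this mean E2 effect over all 8 arrays, 0 of the 21 member probe sets passed, against 0.0533% of all, and 8 had an unadjusted p under 0.05, against 4.23%.

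Skil, which encodes the corepressor SnoN, was bright on 1452214_at, at the 93 percentile. It read 10.2 and 10.56 with Dex+E2, 10.27 and 10.24 with Dex, 10.41 and 10.7 with E2, and 10.05 and 9.98 in untreated cells. Every treated array was above both untreated arrays. The E2 difference was 0.54 ± 0.131 (limma adjusted p = 0.514), the Dex difference 0.24 and the Dex+E2 difference 0.36 (adjusted p = 0.453). Its other probe set, 1422054_a_at, stayed between 6.12 and 6.21 on all 8 arrays, so the probe sets of this gene disagree. Without the 2 arrays described as GR-ChIP, the Dex+E2 differences of Skil 1452214_at and of Tgfb2 1423250_a_at were 0.55 and 0.59 (adjusted p = 0.0244 and 0.0324). Dex+E2 is then a single array, with its spread taken from the other groups, so these 2 calls have no replicate behind them.

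Bambi, a receptor-like protein without a kinase domain that blocks type I receptors, was dim at the 30.6 percentile. It read 4.44 and 4.46 with E2, against 4.75 and 4.74 in untreated cells, a difference of -0.3 ± 0.0811 (limma adjusted p = 0.625). The Dex+E2 arrays, at 4.68 and 4.63, and the Dex arrays, at 4.71 and 4.69, lay between them. Smad6, Smad7 1423389_at and Tgif1 differed from untreated by -0.39, -0.24 and -0.44 with E2 (adjusted p = 0.795, 0.882 and 0.794).

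**Figure D3:**
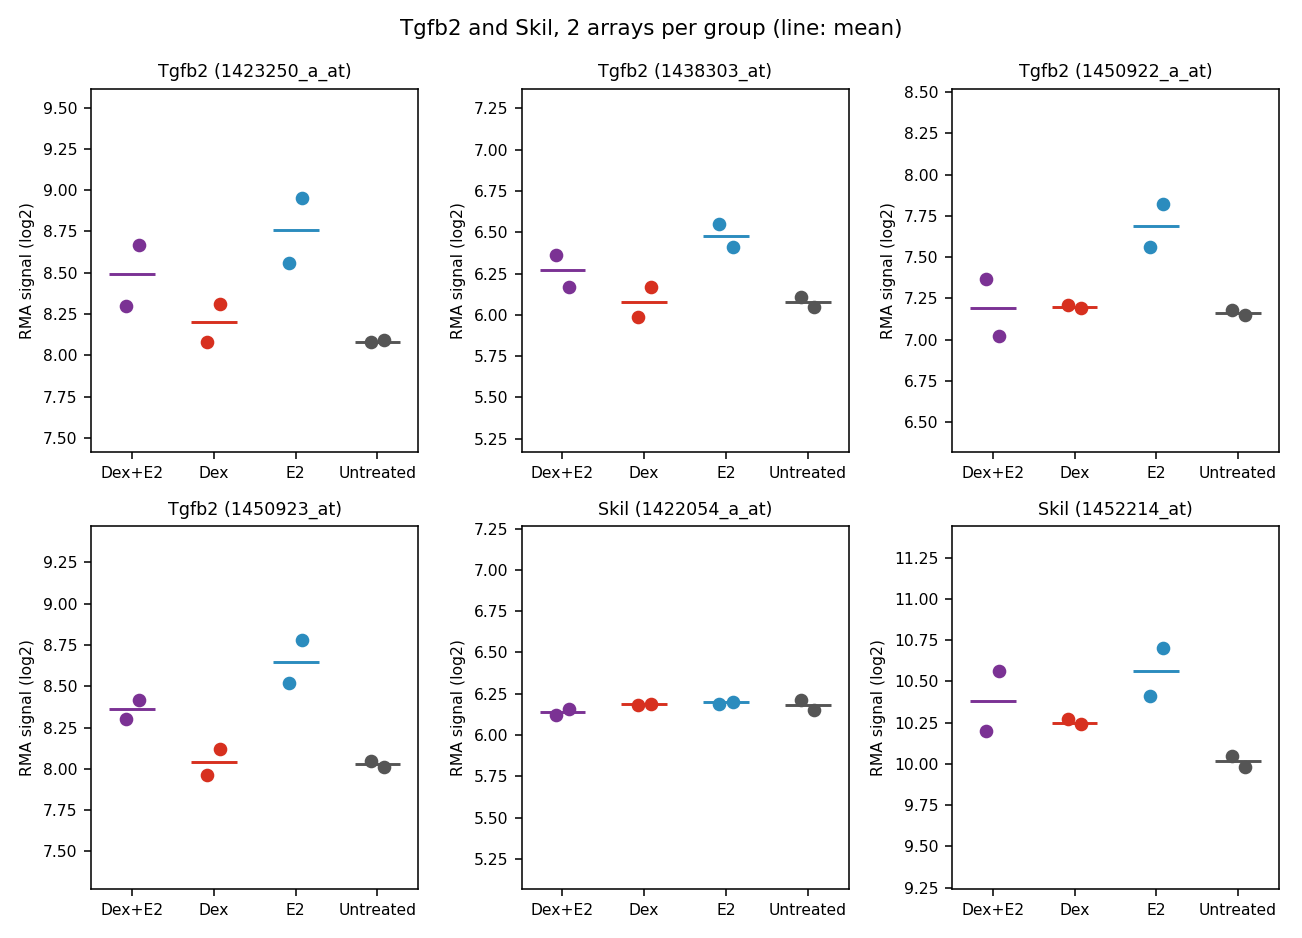
Log2 levels of the 4 Tgfb2 and 2 Skil probe sets on each array (points) with group means (bars), in the order Dex+E2, Dex, E2 and Untreated. Both E2 arrays lie above both untreated arrays on every probe set except Skil 1422054_a_at, and no E2 difference passed the adjusted threshold.

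Both hormones together left Smad6, Smad7 and Tgif1 below untreated cells. With Dex+E2, 4 of the 21 member probe sets passed, all lower, against 0.844% of all probe sets (0.373% lower), and 7 had an unadjusted p under 0.05, against 8.16%. Smad6 was -0.92 from untreated, 1.89-fold lower (adjusted p = 0.00656). Smad7 was -0.6 on 1423389_at, 1.51-fold lower (adjusted p = 0.0143), and -0.77 on 1443771_x_at, 1.71-fold lower (adjusted p = 0.00238). Tgif1 was -1.36, the largest difference among the 21 in this comparison, 2.56-fold lower (adjusted p = 0.00105). These and the Dex differences use the same untreated arrays and so are not independent of each other. The remaining 17 probe sets lay between -0.18 and 0.4. The Smad6 call was lost without Untreated replicate 2 (adjusted p = 0.119). The Smad7 1423389_at call was lost without Untreated replicate 1 or 2 or Dex+E2 replicate 2 (0.166, 0.114 and 0.0925), and in a fit of only the Dex+E2 and untreated arrays (0.0692). The Tgif1 and Smad7 1443771_x_at calls held throughout.

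Adding E2 to Dex changed no member past the threshold. Against Dex alone, 0 of 21 probe sets passed with Dex+E2, with 0.00666% called over all probe sets and 3 members at an unadjusted p under 0.05, against 4.66%. These 3 were Smad7 1443771_x_at at 0.33, Tgfb2 1450923_at at 0.32 and Tgfbr1 1420893_a_at at -0.32. On their other probe sets Tgfb2 differed by -0.01 to 0.29, and Tgfbr1 by 0.08 on the bright 1420895_at and -0.08 on 1420894_at. Smad6, Smad7 1423389_at and Tgif1 differed by 0.18, 0.19 and -0.24 (adjusted p = 0.996 each).

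Adding Dex to E2 lowered Tgif1, and Smad7 on 1 of its probe sets. Against E2 alone, 2 of the 21 probe sets passed with Dex+E2, both lower, where 0.335% of all probe sets passed and 0.131% were lower. At an unadjusted p under 0.05 there were 7, against 11.8% of all. Tgif1 was -0.92 ± 0.144, 1.89-fold lower (adjusted p = 0.0309), and Smad7 1443771_x_at was -0.59 ± 0.0934 (adjusted p = 0.0314). Smad7 1423389_at and Smad6 differed by -0.35 and -0.53 and did not pass (adjusted p = 0.23 and 0.173). Both calls lie close to the threshold: Tgif1 kept its call in 9 of 16 alternatives and Smad7 1443771_x_at in 4 of 14, with adjusted p as high as 0.21 and 0.236. Among single arrays, leaving out either Dex array, either E2 array or Dex+E2 replicate 2 ended both calls, and leaving out either untreated array ended that of Smad7. Without both arrays described as GR-ChIP, Smad7 1443771_x_at was -0.65 (adjusted p = 0.0543) and Tgif1 kept its call, with a single array in each group compared.

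The Dex difference was smaller in the presence of E2 for Smad6 and Smad7, but that change itself was not called. The interaction, the Dex difference with E2 minus the Dex difference without it, was 0.56 for Smad6 (95% interval 0.16 to 0.97), 0.43 for Smad7 1423389_at (0.13 to 0.73), 0.51 for Smad7 1443771_x_at (0.22 to 0.81) and 0.2 for Tgif1 (-0.25 to 0.65). Adjusted p was 0.881 for the Smad6 and Smad7 probe sets and 0.914 for Tgif1. Of the 21 member probe sets, 0 passed and 6 had an unadjusted p under 0.05, against 0.00222% and 5.46% of all probe sets. Averaged over both E2 states, the Dex effect was called for 4 of the 21 member probe sets, all lower, against 1.37% of all probe sets (0.693% lower), and 6 had an unadjusted p under 0.05, against 10.4%. It was -0.82 for Smad6 (adjusted p = 0.000916), -0.57 and -0.85 for Smad7 on 1423389_at and 1443771_x_at (0.00134 and 8.95e-05), and -1.02 for Tgif1 (0.000445). These calls held under every alternative run on them.

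**Figure D4:**
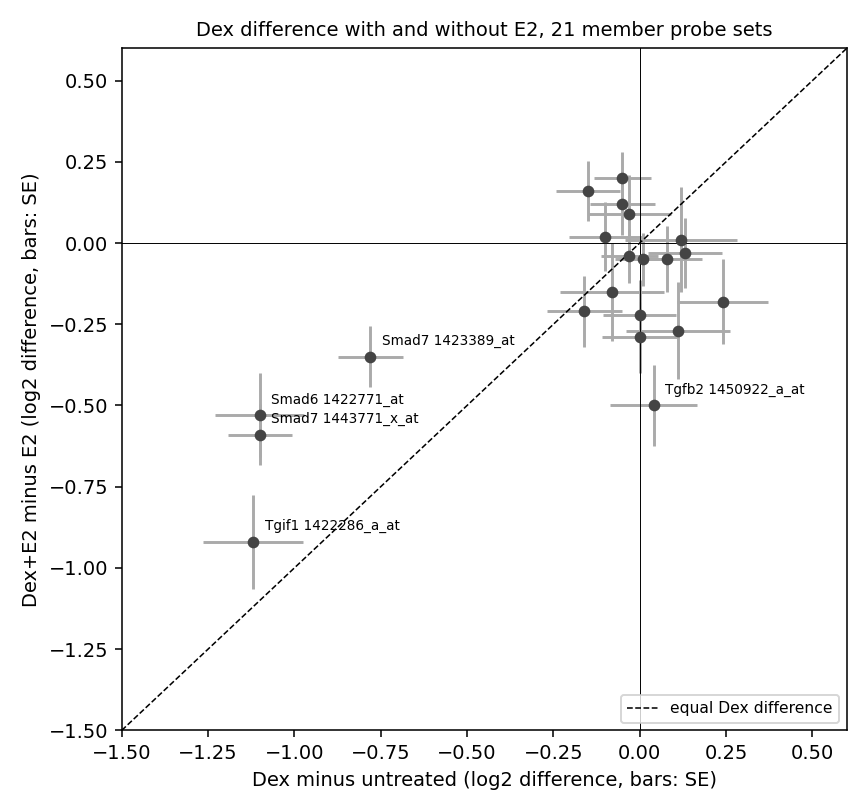
Log2 Dex difference of the 21 member probe sets with E2 present (Dex+E2 minus E2, vertical axis) against that with E2 absent (Dex minus untreated, horizontal axis), with standard errors as bars and a dashed line of equality. The Smad6, Smad7 and Tgif1 probe sets lie below 0 on both axes and above the dashed line, and no interaction passed the threshold.

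Genes elsewhere in the pathway were taken from a list of 78, of which 75 had a probe set with a single symbol, 181 probe sets in all. With Dex, 7 listed genes rose, 3 fell and 65 were not called. Of the listed probe sets 7.18% were called, against 0.924% of all probe sets. The list was written with earlier results of these data known. Such shares, here and for the other treatments below, are therefore not independent evidence. Among the rises were Ccn2, a matricellular target of TGF-beta, by 2.51 ± 0.274, Cdkn1a, the cell cycle inhibitor p21, by 2 and 1.93 on its probe sets, and Id1, a target of the BMP branch, by 0.99. The others were the kinase gene Sik1 at 0.92 on 1 of its probe sets (0.25 on the other, not called), the activin antagonists Fstl3 at 0.64 and Fst at 0.62 on 1 of its probe sets (0.44 on the other, not called), and the co-receptor Tgfbr3 at 0.64 on 1 of its probe sets and -0.11 on the other. The falls were Klf10, the TGF-beta inducible early gene, by -1.93 ± 0.156, Thbs1, thrombospondin 1 that activates latent TGF-beta, by -1.68 and -1.51, and Snai2, a transcription factor of epithelial to mesenchymal transition, by -0.93 and -1.1. Listed targets of the pathway therefore went both ways, 3 higher and 2 lower of 19 measured. The 5 other Smads, Smad1, Smad2, Smad4, Smad5 and Smad9, had 0 called genes on 12 probe sets, with 0 at an unadjusted p under 0.05 and Dex differences of -0.11 to 0.05.

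Klf10 and Ccn2, the listed genes with the largest fall and rise with Dex, are given by array. Klf10 read 7.03 and 6.51 with Dex+E2, 7.04 and 6.95 with Dex, 8.3 and 8.04 with E2, and 8.86 and 9 in untreated cells. Ccn2 read 11.66 and 10.64 with Dex+E2, 11.83 and 11.31 with Dex, 9.66 and 9.38 with E2, and 8.97 and 9.15 in untreated cells. The arrays with Dex lay apart from those without it on both genes, below them for Klf10 and above them for Ccn2.

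With E2, 1 listed gene rose and 74 were not called, with 0.552% of the listed probe sets called against 0.0355% of all. The gene that rose, Cdkn1a, was 1.21 ± 0.141 higher on 1424638_at (adjusted p = 0.019) and 1.2 on 1421679_a_at (adjusted p = 0.0719). That call ended without either untreated array, either Dex array or E2 replicate 2, and with only the E2 and untreated arrays, at adjusted p between 0.0525 and 0.46. At an unadjusted p under 0.05, 16 of the 75 listed genes had a probe set that differed with E2, where 5.42% of all single probe sets did, and a gene with several probe sets has more chances to be counted. With Dex+E2, 5 listed genes rose, 7 fell and 63 were not called. Of the listed probe sets 8.29% were called, against 0.844% of all probe sets. The rises were Cdkn1a (2.37 and 2.18), Ccn2 (2.09), Fstl3 (0.98), Sik1 on 1 of its probe sets (0.88, with 0.09 on the other) and Id1 (0.79). The falls were Klf10 (-2.16), Thbs1 (-1.45 and -1.21), Id3 (-1.3), Fn1 on 1 of its probe sets (-1.1, with -0.05 on the other), Snai2 (-1.06 and -1.08), the activin subunit Inhba on 1 of its probe sets (-0.51, with -0.06 on the other) and the type I receptor Acvr1 on 1 of 3 (-0.45). For the alternatives that follow, the share of all probe sets called was not counted. Changes in their counts are therefore not read as a result about the listed genes. Without the 2 arrays described as GR-ChIP, 15 listed genes were called with Dex, 1 with E2 and 16 with Dex+E2, the last from a single Dex+E2 array. Leaving out single arrays gave 5 to 12 called listed genes with Dex, 0 to 3 with E2 and 6 to 14 with Dex+E2. With Dex, the count was 5 without Untreated replicate 1 or Dex replicate 1, and Tgfbr3, Sik1, Fstl3, Fst, Id1 and Snai2 on 1418673_at were the called genes that lost a call without an array, at adjusted p up to 0.44 (Tgfbr3). With Dex+E2, it was 6 without Untreated replicate 1 and 7 without Untreated replicate 2, and Acvr1, Fn1, Inhba, Id1, Sik1 and Ccn2 were those that lost a call, at adjusted p up to 0.396 (Acvr1).

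**Figure D5:**
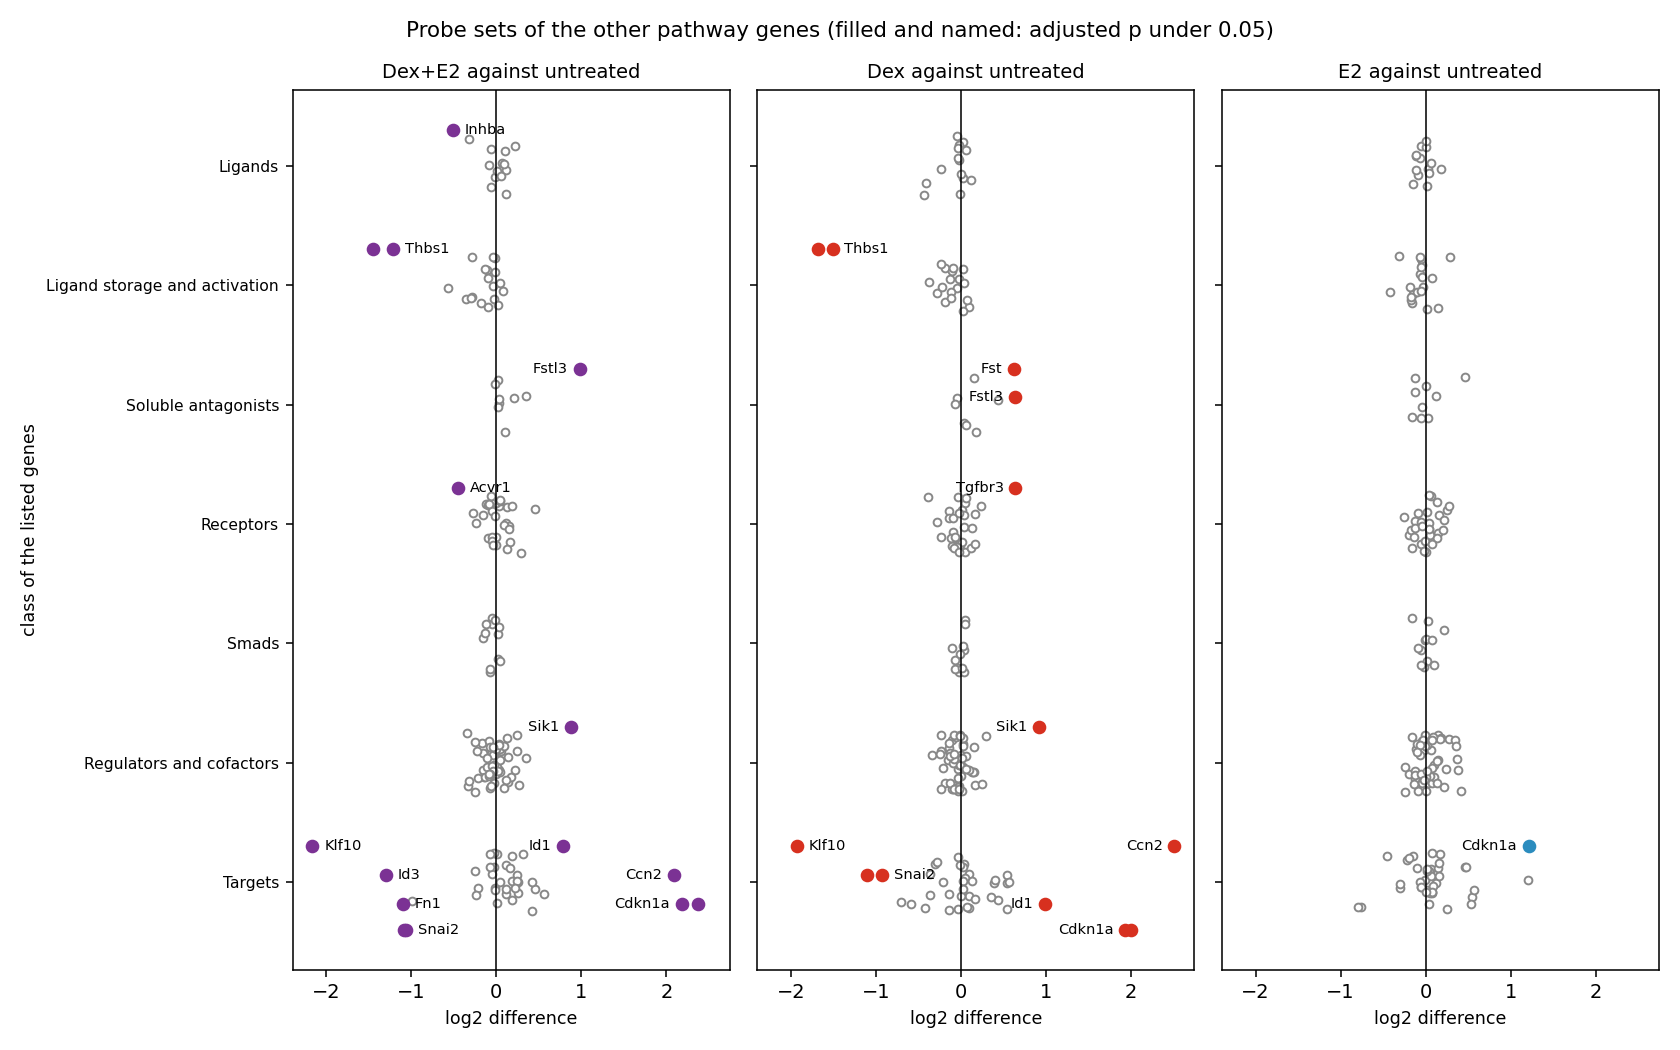
Log2 differences from untreated of the 181 listed probe sets with Dex+E2, Dex and E2, in rows by class, with called ones filled and named. Ccn2 and Cdkn1a lie farthest above 0 with Dex and Dex+E2, and Klf10 and Thbs1 farthest below.

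The genes whose levels followed the 3 lowered members most closely were found by the root mean square difference between the 8 centred array values, over 18192 other genes. For Tgif1 they were Ier3 (0.0956 log2 units), Usp17la (0.124) and Zfp36l1 (0.127), where the median gene was 0.568 away. For Smad6 they were Csf1 (0.145), Socs5 (0.173) and Fhdc1 (0.18), against a median of 0.461. For Smad7 1423389_at they were Ppargc1b (0.0546), Irf2bpl (0.0707) and Chst1 (0.0907), against a median of 0.328. Ier3, nearest to Tgif1, differed from untreated by -1.28 with Dex+E2, -1.04 with Dex and -0.46 with E2, against -1.36, -1.12 and -0.44 for Tgif1.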

How the data were processed

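The deposited table holds log2 values, 1 per probe set and array, which the authors made by RMA (robust multi-array average) with Affymetrix Expression Console, version not given, per the submitters' processing notes. RMA corrects background, gives the probe signals of all arrays 1 distribution and then merges the probes of a set. Heights therefore cannot be compared between probe sets, and differences of dim ones are compressed. Of 45101 probe sets, 64 controls were left out and no filter on level was used. Groups follow the titles. Group means were estimated over the 8 arrays by limma 3.58.1 under R 4.3.3 (4 residual and 6.29 prior degrees of freedom), for 8 comparisons, with Benjamini-Hochberg adjustment over 45037 probe sets within each. Errors after ± are standard errors, whose median was 0.102. The fit was tested on simulated data. Percentiles rank a probe set's mean level over all arrays.

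The platform annotation gives 1 symbol for 34945 probe sets, several for 932 and none for 9160, and 34741 matched RefSeq. Named genes are all members, up to 12 called listed genes per direction, the 3 nearest patterns of the 3 members with the widest range on their brightest probe set, and Fkbp5, Per1 and Tsc22d3. Members and lists were chosen with earlier results of these data known. Listed genes that no probe set with a single symbol names are not analysed here. Alternatives were renormalization, a level filter, another prior, gene-level values, fewer groups, a replicate block and leaving out arrays. Precision is limited by the number of arrays.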

Additional observations from a re-analysis of the deposited data

How the results depend on the processing

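Over 97 results and their alternatives, 1471 values were computed: 1358 kept direction and side of the threshold, 90 kept direction but lost the threshold (18 results), 5 gained it (4 results) and 18 changed sign (12 results). No value that changed sign passed the threshold in either setting, and the cause was not tested. Leaving out single arrays gave ranges that crossed 0, or after rounding reached it, for these differences. For Ski 1429192_at they were -0.08 to 0.41 with Dex+E2 (-0.02 without Untreated replicate 2), -0.07 to 0.31 with Dex and -0.04 to 0.35 with E2. For Tgfb2 1423250_a_at with Dex the range was 0 to 0.22. For the other Tgfb2 probe sets the ranges were -0.09 to 0.09 on 1438303_at with Dex (0.03 without Untreated replicate 1), -0.08 to 0.08 on 1450923_at with Dex (-0.02 without Untreated replicate 2) and -0.14 to 0.2 on 1450922_a_at with Dex+E2. They were -0.12 to 0.07 for Tgfb1 1420653_at and -0.18 to 0.01 for Tgfbr1 1420895_at with Dex+E2, -0.06 to 0 for Smad3 1454960_at with Dex, and -0.01 to 0.36 for Smad6 with Dex+E2 against Dex. Without both arrays described as GR-ChIP, a setting chosen after seeing the data, Tgfb1 1420653_at was 0.07 and Tgfb2 1450922_a_at -0.14 with Dex+E2, and the Tgif1 interaction was -0.09. When the probe sets of a gene were averaged, Smad3 was 0.01 with Dex and Tgfbr1 -0.01 with E2.

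Member genes called with Dex+E2 against untreated numbered 5 without the arrays described as GR-ChIP, Skil and Tgfb2 being added from the single Dex+E2 array left, whose spread is taken from the other groups. With Dex+E2 against E2 there was 1 in that setting and 1 with a single probe set per gene, and there were 0 with only the compared arrays. For the mean E2 effect there was 1 (Tgfb2 1450923_at, adjusted p = 0.0331) with a trended and robust prior. Listed genes called with E2 were 0 with only the compared arrays. The share of all probe sets called was not counted for any alternative in this paragraph. In the main fit it was 0.0355% with E2, 0.00666% with Dex+E2 against Dex and 0.00222% in the interaction. A count of 0 member genes in these comparisons is near that share and is not a result about the members. Leaving out single arrays gave 2 to 3 member genes for Dex and for Dex+E2 against untreated, 0 to 3 for Dex+E2 against E2, 0 to 1 for the mean E2 effect and 3 for the mean Dex effect, and 5 to 12, 0 to 3 and 6 to 14 listed genes with Dex, E2 and Dex+E2. Over all alternatives 0 member genes were called with E2, with Dex+E2 against Dex or in the interaction.

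Replicate numbers are shared by the groups. Deviations of same-numbered arrays correlated at 0.16 (Dex and Untreated), 0.23 (Dex and E2) and 0.31 (E2 and Untreated). With Dex+E2 all were negative, at -0.11 (Dex), -0.19 (E2) and -0.25 (Untreated). The numbers were not taken to pair the arrays, a question that these signs do not decide. Whether arrays share a batch was not tested. The replicate block uses the numbers as titled in every group, Dex+E2 included. It therefore does not test a pairing in which the Dex+E2 numbers run the other way. With that block, 0 member genes were called with Dex+E2 against E2, 3 with Dex and 3 with Dex+E2 against untreated.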
